A study of Mus musculus with 4 samples.

Results

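Integrins are the adhesion receptors that let T cells grip other cells and the extracellular matrix. Transcripts for 10 integrin chains that T cells are known to use were followed here in mouse CD4+ T cells grown under Th9 conditions, in which helper T cells come to secrete interleukin 9. The 10 genes were chosen by symbol: Itgal, Itgb2, Itga4, Itgb1, Itgb7, Itgae, Itgav, Itgb3, Itgb8 and Itga6. All 10 were among the 17478 genes listed in at least 1 library, and all 10 were among the 12677 genes that passed the filter on low counts. Itgb8 passed that filter only through the knockout libraries, where it was higher.

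The 4 RNA-seq libraries comprise 2 of wild-type origin and 2 made from T cell-conditional Bfar-deficient animals (genotype BFAR-/- in the labels), all of strain C57BL/6 and aged 6 to 8 weeks. Both genotypes supplied naive CD4+ cells from spleen and lymph nodes, sorted as CD44 low and CD62L high, stimulated through CD3 and CD28 and kept under Th9 conditions for 3 days. The sources used here do not name the promoter that deletes Bfar, the exons removed or the cytokines added to the culture. Nothing in the labels ties a replicate to its own mouse or culture, so the p-values describe only the spread between these libraries, which may be technical. Because bulk RNA was measured, fewer cells of a kind and less RNA per cell cannot be told apart.

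Every integrin is a pair of an alpha and a beta chain, and each chain can have several partners. Itgal and Itgb2 form LFA-1, which binds ICAM proteins and holds the T cell to an antigen-presenting cell. Itga4 pairs with Itgb1 to bind VCAM-1 and with Itgb7 to bind MAdCAM-1 in the gut, while Itgae pairs with Itgb7 to make CD103, which binds E-cadherin on epithelium and is induced in T cells by TGF-beta. Itgav pairs with Itgb3 or Itgb8, among others, and the pairs of Itgav with Itgb8 release TGF-beta from its latent form. Itga6 pairs with Itgb1 to bind laminin.

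Summed expected counts ran from 19058009 to 19782923 per library. Bfar itself, which encodes a ubiquitin ligase of the endoplasmic reticulum, measured 36.4 and 32.9 CPM (read counts scaled to library size, with TMM factors) in wild type and 8.44 and 7.79 CPM in the knockout, so each library matched its label. T cell markers were abundant: the 7 on the list summed to between 1947 and 2210 CPM. Markers of other cells were low in every library. Their summed CPM ran from 9.998 to 11.58 for 2 CD8 T cell genes (Cd8b1 the highest), from 4.421 to 5.311 for 5 B cell genes (Cd79b) and from 2.368 to 3.682 for 4 NK cell genes (Eomes). It ran from 1.105 to 2.074 for 7 macrophage and dendritic cell genes (Itgax), from 0.8093 to 1.347 for 4 platelet genes (Itga2b), from 0.1579 to 0.5698 for 3 gamma-delta T cell genes (Sox13) and from 0.3108 to 0.6842 for 4 erythroid genes (Alas2). The defining genes Csf1r, Lyz2, Ncr1, Pf4, Ppbp, Gp9 and all 4 mast cell genes were not listed in any library and were taken as 0. The sums of B cell, NK cell, and macrophage and dendritic cell genes were lower in both knockout libraries than in both wild-type libraries. That of platelet genes was higher in both, and those of CD8 T cell, gamma-delta T cell and erythroid genes overlapped. The B cell sum followed Cd79b (4.49 and 4.7 CPM in wild type, 3.68 and 3 CPM in the knockout). Cd79a went the other way, from 0.504 and 0.405 CPM in wild type to 0.777 and 1.05 CPM in the knockout. Few of these markers could be tested: 2 CD8 T cell genes, 2 B cell genes, and 1 gene each for NK cells, macrophages and dendritic cells, and platelets. None of them passed the threshold. The gamma-delta T cell, mast cell and erythroid lists had 0 tested genes.

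The knockout cells carried more transcript of most of these chains. Compared with wild type, 8 of the 10 rose (Itgb8, Itgb3, Itga4, Itgav, Itgae, Itgb7, Itga6 and Itgb2), Itgal fell, and Itgb1 did not pass the test (edgeR quasi-likelihood test, Benjamini-Hochberg adjusted p under 0.05 over all genes tested). Among all tested genes 26.8% were called, 13.6% as higher and 13.2% as lower in the knockout. The 10 chains and the gene lists below were chosen with earlier results of these data known. Their shares called therefore cannot serve as an independent test against the share of all genes. Itgb8 was tested only because of its knockout libraries, where it was high, so its call is not taken as support. The changes were small apart from Itgb8 and Itgb3: the median log2 fold change of the 10 was 0.26, and the median over all tested genes was -0.002. In 9 of 10 chains the wild-type and knockout libraries did not overlap, as was the case for 63.5% of tested genes (knockout higher in 31.6%, lower in 31.9%). The list of T cell identity genes moved the same way as the 8 chains, with 5 of 7 called higher (Cd28, Cd4, Cd2, Cd3e and Cd3g), none lower and a median of 0.21, and its part in the integrin results was not tested.

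How many chains passed depended on the analysis, while no called direction turned in any of the alternatives run. In counts, 9 of the 10 passed with median-ratio factors (26.7% of all genes tested), 8 with a minimum mean of 1 CPM, which left out Itgb8 (28.7%), 7 with no filter (11.1%) and 6 in DESeq2 (13.5%). Leaving out a library gave 6 without wild-type replicate 1 (16.3% of all genes), 8 without wild-type replicate 2 (18.1%), 6 without knockout replicate 1 (15.8%) and 5 without knockout replicate 2 (12.1%). In the deposited FPKM values, limma as first run, with no mean-variance trend, called 4 chains on the log2(FPKM + 1) scale (Itga4, Itgav, Itgb3 and Itgb7; 12.8% of all genes). It called 1 on the log2(FPKM + 0.1) scale (Itga4; 3.58%). Without a filter it called 0, with 7 of the 10 at an unadjusted p under 0.05 (0.126% of all genes called). A mean-variance trend was added to limma after those values had been seen. It raised the counts to 7 (19% of all genes), 7 (18.6%) and 1, Itgav (1.48%).

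**Figure D1:**
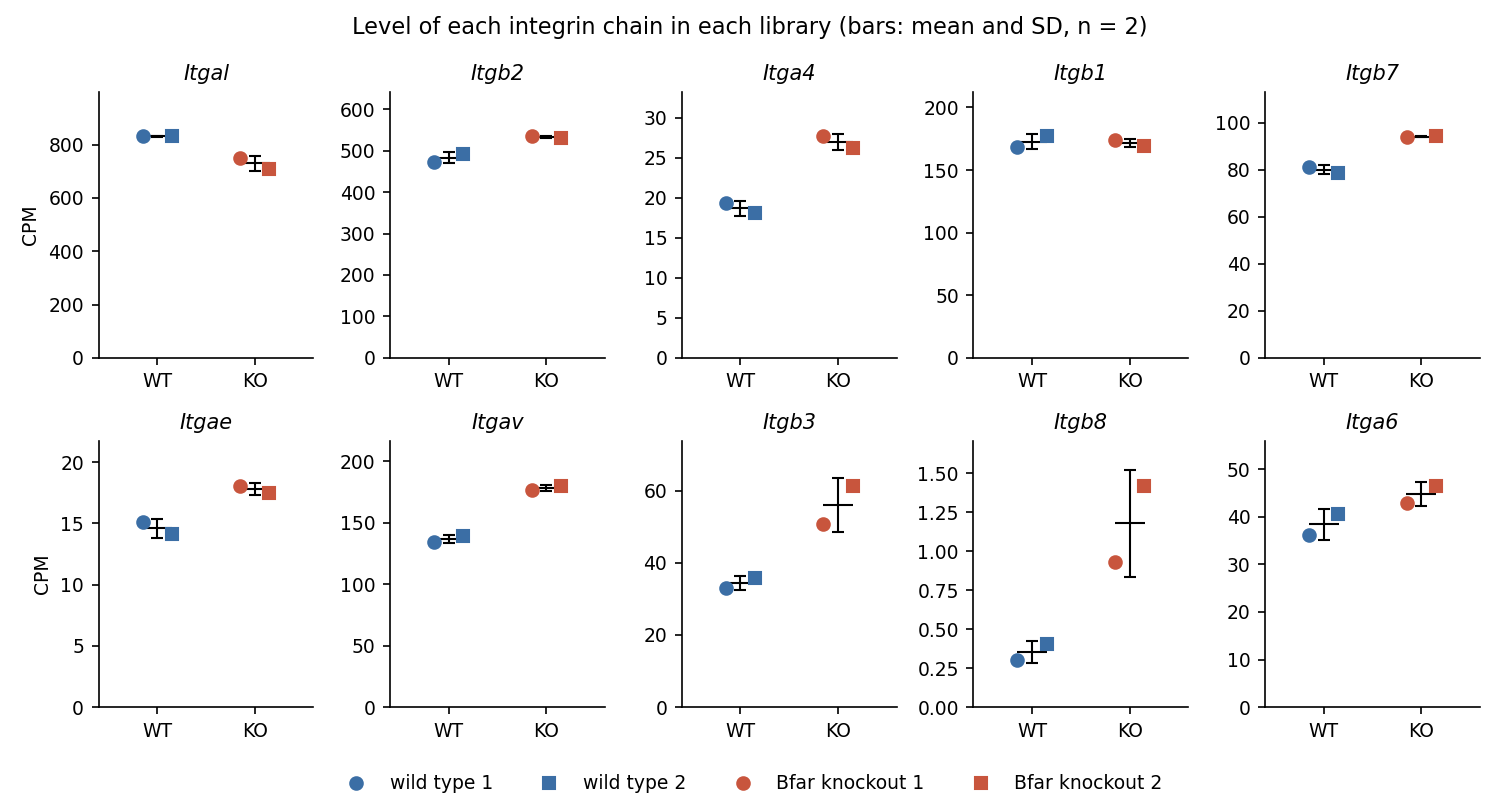
Level of each of the 10 integrin chains in CPM (vertical axis, from 0) in the 2 wild-type (WT) and 2 knockout (KO) libraries, with circles for replicate 1, squares for replicate 2, and black bars for the mean and SD. The knockout points lie above the wild-type points in 8 chains, below them in Itgal and among them in Itgb1.

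Itgb8 and Itgb3, which both pair with alpha v, had the largest folds of the 10, while Itgb1, which also pairs with it, did not pass the test. Itgav (gene 16410, chromosome 2, 83722303 to 83806917, GRCm38) stood at 134.1 and 138.8 CPM in wild type and at 176.2 and 180.1 CPM in the knockout. Both knockout libraries lay well above both wild-type libraries. Itgav rose by 0.38 ± 0.04 on the log2 scale (SE, n = 2 libraries a genotype; edgeR adjusted p = 6.8e-06), a fold of 1.31 with a 95% interval of 1.23 to 1.39. Itgav passed in 13 of 15 alternative analyses, and missed the threshold with log2(FPKM + 0.1) in limma without a trend, at an adjusted p of 0.0502 with the filter and 0.117 without it.

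Itgb3 (gene 16416, chromosome 11, 104608000 to 104670476), the beta 3 chain of the vitronectin receptor, measured 33.0 and 35.7 CPM in wild type against 50.8 and 61.4 CPM in the knockout. The knockout libraries were both higher and also further apart from each other (SD 7.5, against 1.86 in wild type). The log2 fold change was 0.71 ± 0.08 (SE; adjusted p = 1.26e-05). It lay between 0.56 and 0.84 when single libraries were left out, and the call was lost in 3 of 15 alternatives, all on the log2(FPKM + 0.1) scale. The platelet and megakaryocyte markers Pf4, Ppbp and Gp9, whose cells are rich in beta 3, were taken as 0 in all 4 libraries. Itga2b, the platelet partner chain, had 1.06 and 0.809 CPM in wild type and 1.35 and 1.11 CPM in the knockout. It did not pass the test (log2 0.39 ± 0.33, SE, edgeR adjusted p = 0.414), and a platelet part in the Itgb3 values was not tested.

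Itgb8 (gene 320910, chromosome 12, 119162803 to 119238276), the beta 8 chain, was scarce: 6 and 8 counts came from the wild-type pair, 18 and 27 from the knockout pair. That is 0.303 and 0.405 CPM against 0.932 and 1.42 CPM, so the groups did not overlap, and the wild-type libraries lay near the floor of 3 counts (0.1516 to 0.1574 CPM). Summed over a group, 14 counts in wild type have an exact 95% Poisson interval of 7.65 to 23.5 and 45 counts in the knockout one of 32.8 to 60.2, which covers counting error only. The log2 fold change was 1.71 ± 0.43 (SE; edgeR adjusted p = 0.00812, 95% interval 0.80 to 2.63). The call was lost in 6 of 13 alternatives, among them the fits without wild-type replicate 1 (adjusted p = 0.0913) or knockout replicate 2 (0.106). DESeq2 gave no adjusted p at this level, and on the log2(FPKM + 1) scale, which understates changes of low genes, the change was 0.31.

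Among the gut-homing and tissue-retention chains, Itga4 rose most. Itga4 (gene 16401, chromosome 2, 79255426 to 79333114) was at 19.3 and 18.1 CPM in wild type and at 27.7 and 26.3 CPM in the knockout. The 2 genotypes were clearly apart, and the log2 fold change was 0.53 ± 0.08 (SE; edgeR adjusted p = 0.000168). The call was lost in 2 of 15 alternatives, the unfiltered limma fits (adjusted p = 0.117 without a trend and 0.0831 with it). The last exons of Itga4 overlap those of Cerkl, a gene on the opposite strand, by up to 905 bases, and 7.64% of Itga4's 31-base words occur in Cerkl as well. Cerkl was assigned only 0.518 to 0.809 CPM in the 4 libraries and did not pass the test (adjusted p = 0.58).

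The beta 7 chain, shared by the alpha 4 and alpha E chains, also rose. Itgb7 (gene 16421, chromosome 15, 102215994 to 102233405) measured 81.3 and 78.7 CPM in wild type and 93.9 and 94.2 CPM in the knockout, with replicates nearly equal within each genotype. Its log2 fold change was 0.23 ± 0.04 (SE; adjusted p = 0.00116), lost in 3 of 15 alternatives, all on the log2(FPKM + 0.1) scale.

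Itgae (gene 16407, chromosome 11, 73090505 to 73147449), the alpha chain of CD103, had 15.1 and 14.1 CPM in wild type against 18.1 and 17.5 CPM in the knockout. The knockout libraries were higher without overlap, by 0.29 ± 0.09 on the log2 scale (SE; edgeR adjusted p = 0.0275). That call was lost in 11 of 15 alternatives. These include DESeq2 (adjusted p = 0.268) and the fits that left out knockout replicate 1 (0.149), knockout replicate 2 (0.103) or wild-type replicate 2 (0.149). The kinase gene Haspin (listed as Gsg2) lies inside the Itgae gene on the opposite strand but shares no exon bases with it, and it fell, from 36.3 and 35.2 CPM to 29 and 26.1 CPM (log2 -0.37 ± 0.07, SE; adjusted p = 0.00105).

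Itgb1, the most widely shared beta chain, did not pass the test in any analysis run. Itgb1 (gene 16412, chromosome 8, 128685654 to 128733579) had 168.3 and 176.9 CPM in wild type and 173.8 and 169.1 CPM in the knockout, and the groups overlapped. The log2 fold change was -0.01 ± 0.04 (SE; edgeR adjusted p = 0.9), with a 95% interval of -0.10 to 0.08, so a rise of the size seen for Itgb7 lies outside that interval. Its laminin-binding partner Itga6 (gene 16403, chromosome 2, 71786886 to 71858427) measured 36.2 and 40.7 CPM in wild type and 42.9 and 46.6 CPM in the knockout. The 2 groups were next to each other without overlapping, and the log2 fold change was 0.22 ± 0.07 (SE; adjusted p = 0.0259). The Itga6 call was lost in 11 of 15 alternatives, including DESeq2 (adjusted p = 0.188) and the fits that left out knockout replicate 1 (0.063), knockout replicate 2 (0.254) or wild-type replicate 1 (0.272, with a log2 fold change of 0.14).

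Windows upstream of RefSeq transcript starts of Itga4, Itgav and Itgb1 are shown because these chains can pair with one another (Itgb1 takes both alpha chains) and yet Itga4 and Itgav rose while Itgb1 did not. Each is the 250 bases upstream of a RefSeq start on GRCm38.p6, written 5′ to 3′ on the gene's strand (plus in all 3), at chr2:79255176-79255425 for Itga4, chr2:83724147-83724396 for Itgav and chr8:128685404-128685653 for Itgb1. The Itga4 and Itgb1 windows end where the genes as given above begin, whereas the Itgav window lies inside the Itgav gene as given, upstream of a later start. Capitals mark CAGAC, or GTCTG on the other strand, the letters that SMAD proteins of the TGF-beta pathway are known to bind.
Itga4: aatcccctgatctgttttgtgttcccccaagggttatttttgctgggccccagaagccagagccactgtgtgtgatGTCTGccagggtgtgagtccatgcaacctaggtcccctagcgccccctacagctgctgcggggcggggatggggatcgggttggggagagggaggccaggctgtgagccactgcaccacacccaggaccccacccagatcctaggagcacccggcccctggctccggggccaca
Itgav: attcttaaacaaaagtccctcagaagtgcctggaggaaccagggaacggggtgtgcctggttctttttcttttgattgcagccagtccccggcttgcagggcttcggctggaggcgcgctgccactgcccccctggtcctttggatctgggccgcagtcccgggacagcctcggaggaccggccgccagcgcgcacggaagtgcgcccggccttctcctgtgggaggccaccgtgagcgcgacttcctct
Itgb1: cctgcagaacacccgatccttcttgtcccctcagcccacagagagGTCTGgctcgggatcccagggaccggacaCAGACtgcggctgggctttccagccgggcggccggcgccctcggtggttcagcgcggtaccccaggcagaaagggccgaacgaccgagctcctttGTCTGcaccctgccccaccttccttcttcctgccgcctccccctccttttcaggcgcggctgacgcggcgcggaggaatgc
The motif occurred 1 time in the Itga4 window, 0 times in that of Itgav and 3 times in that of Itgb1, and 42.2% of all 32851 promoter windows of this length held it at least 1 time. The letters TGTGGT, which RUNX factors bind, searched on both strands, occurred 1 time in the Itga4 window and in neither of the others, against 14% of all windows. The letters CCGGAA, which ETS factors bind, were on neither strand of the 3 windows and in 12% of all windows. Such matches describe the letters only, and a window without one says nothing about whether a factor acts on the gene. Of the 10 chains, 5 had a window in the RefSeq promoter table, and those of Itgb7 and Itgb8 are not shown because they overlap annotated exons. The SMAD letters occurred 2 times in the Itgb7 window and 1 time in the Itgb8 window, and neither held the RUNX or ETS letters.

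The LFA-1 chains moved in opposite directions. Itgal (gene 16408, chromosome 7, 127296139 to 127335137), the alpha L chain, had 831.3 and 830.6 CPM in wild type and 749.5 and 709.6 CPM in the knockout. It was the most counted of the 10 and the only 1 that was lower in both knockout libraries, with a difference of -0.19 ± 0.04 on the log2 scale (SE; adjusted p = 0.00137). In limma without a trend it missed the threshold (adjusted p = 0.0705 on log2(FPKM + 1) and 0.114 on log2(FPKM + 0.1)). Itgb2 (gene 16414, chromosome 10, 77530329 to 77565708), the beta 2 chain that every leukocyte integrin of this class needs, had 473.9 and 492.4 CPM in wild type and 534.7 and 531.8 CPM in the knockout. The knockout libraries were higher by 0.14 ± 0.04 on the log2 scale (SE; adjusted p = 0.0083). The Itgb2 call was lost in 7 of 15 alternatives, among them limma without a trend (adjusted p = 0.119 on log2(FPKM + 1)) and the fits that left out knockout replicate 1 (0.0635), knockout replicate 2 (0.0638) or wild-type replicate 1 (0.11).

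**Figure D2:**
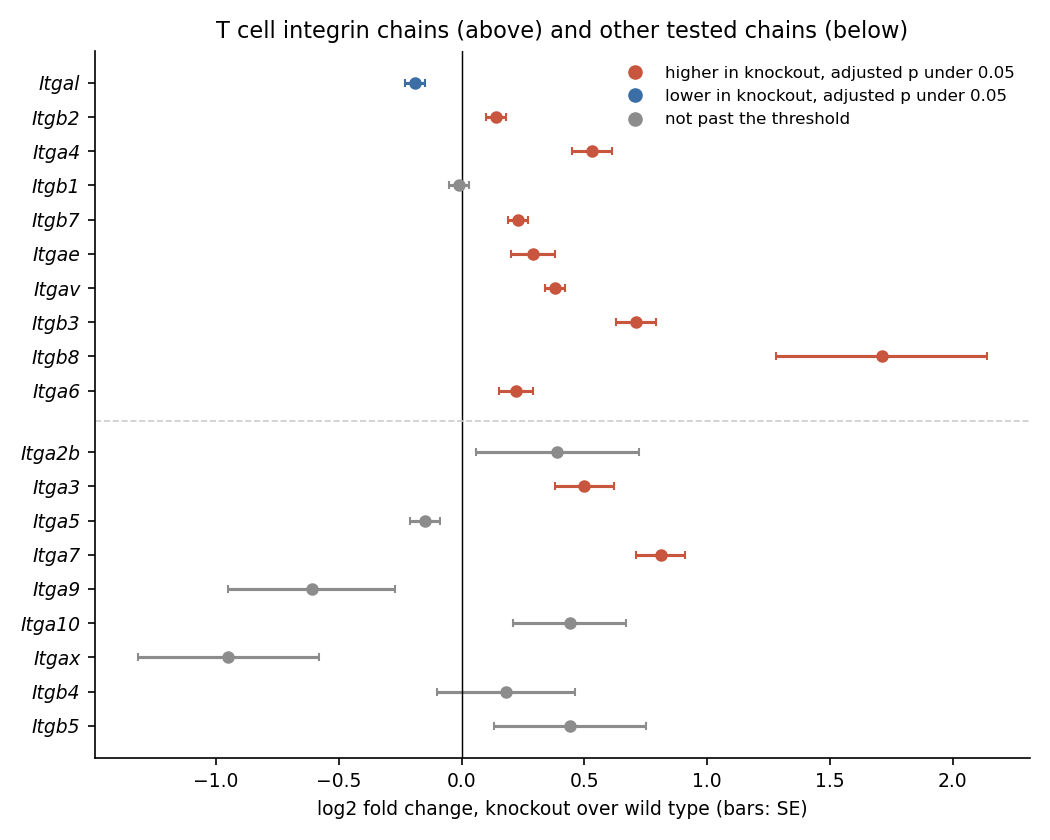
Log2 fold change, knockout over wild type (horizontal axis), with SE bars for the 10 T cell integrin chains above the dashed line and the 9 other integrin chains that could be tested below it; colour gives the edgeR call. Itgb8 at 1.71 and Itgb3 at 0.71 lie furthest to the right of the 10, Itgal at -0.19 lies to the left of 0, and Itga7 and Itga3 are the 2 chains below the line that passed the threshold.

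Per length of transcript, the LFA-1 chains dominated. Mean FPKM (fragments scaled to transcript length and library size) over the 4 libraries was 177 for Itgb2 and 148 for Itgal, followed by 40.7 for Itgb1, 32.1 for Itgb7 and 22.0 for Itgav. Then came Itgb3 at 7.72, Itga6 at 6.85, Itgae at 4.2, Itga4 at 2.29 and Itgb8 at 0.247. The ranges over the 4 libraries of neighbours in this order did not overlap, except for Itgb3 (5.65 to 10.45 FPKM) and Itga6 (5.98 to 7.64 FPKM). In the wild-type libraries Itga6 was above Itgb3 (5.98 against 5.65, and 6.71 against 6.1 FPKM), and in the knockout libraries it was below (7.05 against 8.67, and 7.64 against 10.45 FPKM).

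**Figure D3:**
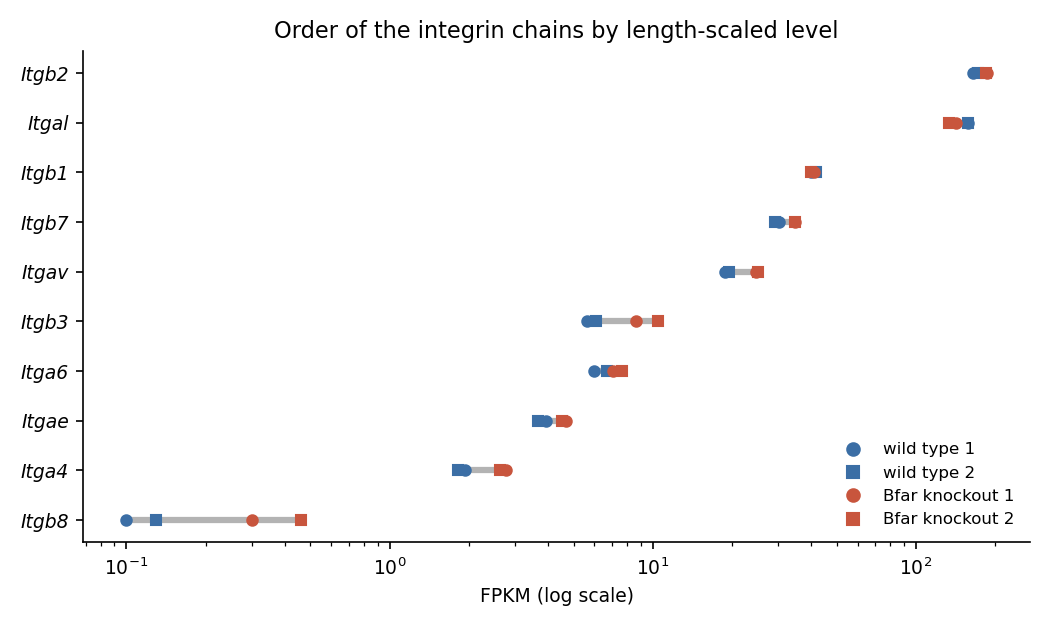
The 10 chains ordered by their mean deposited FPKM (horizontal log axis), with 1 point per library and a grey bar from the lowest to the highest library. The chains span from 0.1 FPKM for Itgb8 to 185.85 FPKM for Itgb2, and Itgb3 and Itga6 are the 1 pair of neighbours whose bars overlap.

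Itgal and Itgb2 together made up 75.2% and 75.1% of the summed FPKM of the 10 chains in wild type and 72.6% and 71.7% in the knockout. Their own sum overlapped between genotypes (323.1 and 329.2 FPKM against 327.8 and 318.6 FPKM), while the sum of the other 8 chains went from 106.4 and 108.9 FPKM to 123.9 and 125.4 FPKM. Summed by kind, the 5 alpha chains gave 188.6 and 189.3 FPKM in wild type and 181.1 and 174 FPKM in the knockout, and the 5 beta chains 240.9 and 248.8 against 270.6 and 269.9 FPKM. Both knockout libraries lay lower in the alpha sum and higher in the beta sum. The lower alpha sum was that of Itgal: the other 4 alpha chains summed to 30.67 and 31.65 FPKM in wild type and 39.17 and 39.94 FPKM in the knockout.

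Partner chains can be compared as ratios. The FPKM ratio of Itgal to Itgb2 was 0.956 and 0.919 in wild type and 0.764 and 0.727 in the knockout, lower in both knockout libraries. Itgae to Itgb7 gave 0.131 and 0.125 in wild type and 0.135 and 0.13 in the knockout, and these overlapped. Itga4 was higher in the knockout relative to both of its partners, at 0.0487 and 0.0435 against 0.0677 and 0.066 for Itgb1, and at 0.0645 and 0.0625 against 0.0802 and 0.0758 for Itgb7.

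For Itgav the order of the groups depended on the partner. Its ratio to Itgb1 was 0.472 and 0.465 in wild type and 0.6 and 0.631 in the knockout. Its ratio to Itgb3 was lower in the knockout (2.84 and 2.41 against 3.33 and 3.19), and so was that to Itgb8 (82.2 and 54.7 against 188 and 150), which rests on few Itgb8 counts. Itga6 to Itgb1 gave 0.15 and 0.16 in wild type and 0.172 and 0.192 in the knockout. With 2 libraries per genotype an exact permutation test of a single ratio cannot go below p = 0.333, so these are given as values without a test, and they are ratios of transcripts, not of proteins on the cell surface.

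**Figure D4:**
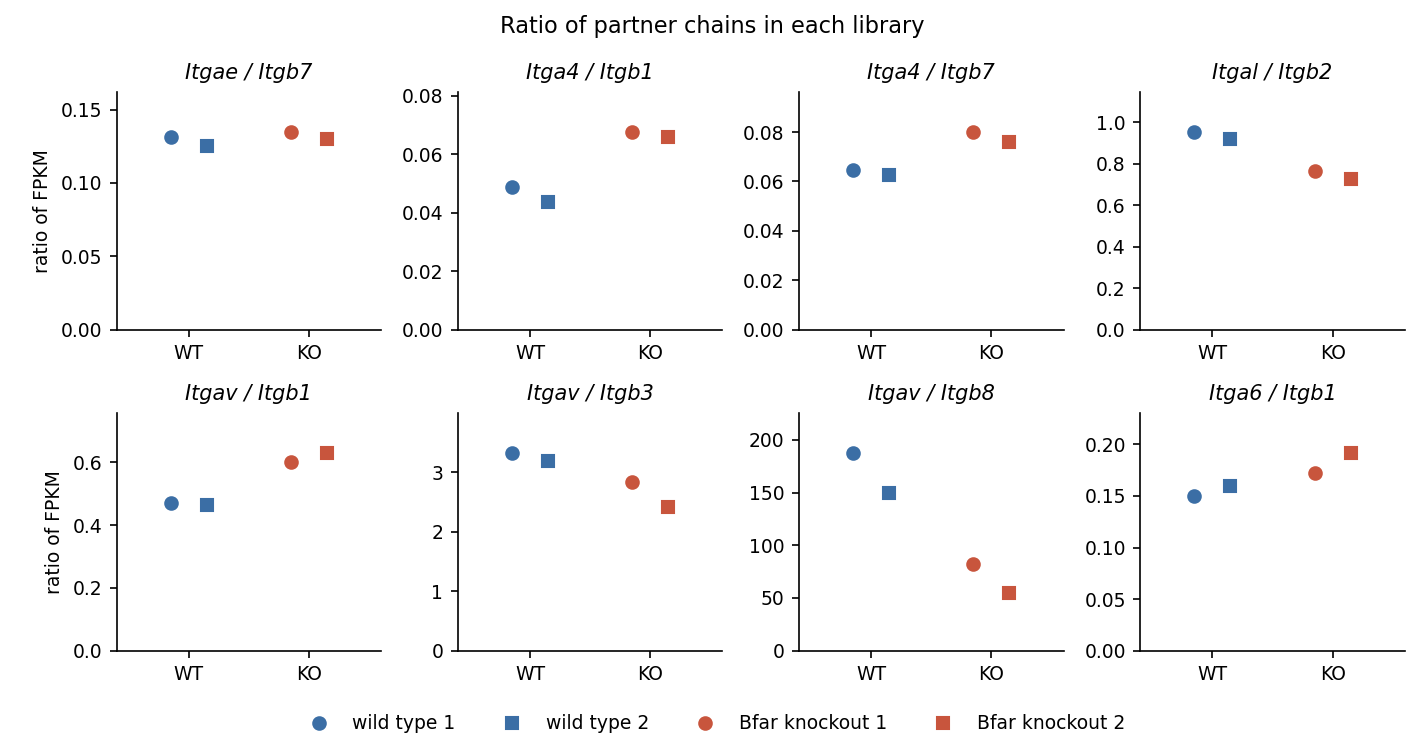
Ratio of the FPKM values of 8 pairs of partner chains (vertical axes, from 0) in each wild-type (WT) and knockout (KO) library. The groups are apart in 7 pairs, with Itgal to Itgb2, Itgav to Itgb3 and Itgav to Itgb8 lower in the knockout, and they overlap for Itgae to Itgb7. Several pairs share a chain, so they are not separate observations. Of single genes tested, 63.5% were apart in CPM, and no such share was computed for ratios of other genes.

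The transcript lengths behind the FPKM values were stable. Of the 10 chains, 7 have a single transcript in the tables and so the same length in each library, the longest being Itga4 at 9833 bases. The other 3 have several transcripts, and the mean length that the authors' estimate gave them varied by 0.463% over the libraries for Itga6 (5990.26 to 6018 bases), 0.0873% for Itgae and 0.00843% for Itgal. The mix of the listed isoforms of these 3 genes was therefore nearly the same in length in all 4 libraries. Apart from Itga4, no chain shared more than 0.23% of its 31-base words with another listed gene. An antisense transcript, Gm13684, overlaps Itgav exons by up to 634 bases, and reads from it could not be told apart from Itgav reads without strand information.

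Of the 9 other integrin chains that could be tested 2 were called, both higher (median log2 fold change 0.39). That is 22.2%, near the 26.8% called among all tested genes. Itga7, a laminin-binding alpha chain best known from muscle, had 9.03 and 8.14 CPM in wild type and 14.9 and 15.3 CPM in the knockout (log2 0.81 ± 0.10, SE; adjusted p = 5.05e-05). Itga3, another laminin receptor chain, had 7.67 and 9.16 CPM against 11.6 and 12.2 CPM (log2 0.50 ± 0.12, SE; adjusted p = 0.00513), a call lost in 7 of 15 alternatives, with an adjusted p of 0.0854 in DESeq2, 0.0689 without wild-type replicate 1 and 0.076 without knockout replicate 2.

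The most abundant of the other chains, the fibronectin receptor chain Itga5, measured 39.6 and 39.8 CPM in wild type and 34.1 and 37.6 CPM in the knockout (log2 -0.15 ± 0.06, SE; adjusted p = 0.107). Log2 values for the remaining ones were -0.95 ± 0.37 for Itgax (adjusted p = 0.0726), -0.61 ± 0.34 for Itga9, 0.44 ± 0.23 for Itga10, 0.44 ± 0.31 for Itgb5, 0.39 ± 0.33 for Itga2b and 0.18 ± 0.28 for Itgb4. None of these 7 passed the threshold, and apart from Itga5 their level did not exceed 3.68 CPM in any library.

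Activators and adaptors switch integrins on from inside the cell. Of 33 tested, 3 rose and 4 fell, with a median log2 fold change of 0.03, and the share called (21.2%) was near the 26.8% of all tested genes. Tln1, the talin that pulls on beta chain tails, was at 563.6 and 554.4 CPM in wild type and 581.4 and 588 CPM in the knockout (log2 0.06 ± 0.03, SE; adjusted p = 0.182), and Fermt3, the kindlin of blood cells, had a log2 fold change of 0.05 ± 0.04. Fyb, the adaptor ADAP of the T cell receptor pathway to LFA-1, rose from 124.7 and 114.9 to 149.1 and 147.7 CPM (log2 0.31 ± 0.05; adjusted p = 0.000149). Skap1, the partner of ADAP, fell from 59.9 and 59 to 50.4 and 53.5 CPM (log2 -0.20 ± 0.05; adjusted p = 0.0121), a call lost in 8 of 15 alternatives, among them DESeq2 (0.144).

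Rassf5, which encodes the Rap1 effector RAPL, rose by 0.17 ± 0.04 (adjusted p = 0.0031), and Rapgef1, which encodes a Rap1 exchange factor, fell by 0.17 ± 0.04 on the log2 scale (adjusted p = 0.00349). Lims1, an adaptor of integrin-linked kinase, rose by 0.20 ± 0.05 (adjusted p = 0.00615). The Rassf5 call was lost in 6 of 15 alternatives, among them those without wild-type replicate 1 (adjusted p = 0.0508) or knockout replicate 1 (0.0506), and the Lims1 call in 7 of 15, among them DESeq2 (0.0728) and the fits without wild-type replicate 1 (0.0963) or knockout replicate 2 (0.0737). Of the 7 calls in the list, DESeq2 made 3, limma without a trend made 1 on log2(FPKM + 1), and 2 were left when wild-type replicate 1 was dropped, 3 for knockout replicate 1 and 4 for knockout replicate 2.

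Of 14 tested genes for integrin ligands 3 rose and 3 fell (42.9% called, against 26.8% of all tested genes), with a median log2 fold change of -0.22. Icam1, a ligand of LFA-1, fell from 54.9 and 56 to 44.7 and 44.9 CPM (log2 -0.31 ± 0.05; adjusted p = 0.000494). Vcam1, the ligand of the alpha 4 and beta 1 pair, fell from 8.12 and 7.74 to 4.87 and 4 CPM (log2 -0.84 ± 0.14; adjusted p = 0.000553). Icam2 fell by 0.44 ± 0.12 on the log2 scale (adjusted p = 0.0153), a call lost in 10 of 15 alternatives, among them DESeq2 (0.151).

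The ligand genes that rose were Lama5, Lamc1 and Thbs1. Lama5, a laminin alpha chain, rose from 69.1 and 66.3 to 97.7 and 108.1 CPM (log2 0.60 ± 0.05; adjusted p = 1.11e-06), and Lamc1, the laminin gamma 1 chain, from 70.4 and 64.9 to 86.9 and 87.9 CPM (log2 0.37 ± 0.05; adjusted p = 7.45e-05). Thbs1, which encodes thrombospondin 1, rose by 0.34 ± 0.07 (adjusted p = 0.00209), a call lost in 8 of 15 alternatives, among them the fit without knockout replicate 1 (0.068). Cdh1, the E-cadherin that CD103 binds, had 0.202 and 0.354 CPM in wild type and 0.932 and 0.526 CPM in the knockout (log2 1.37 ± 0.53; adjusted p = 0.067). Spp1, which encodes the matrix ligand osteopontin, had 0.908 and 0.759 CPM against 0.414 and 0.368 CPM (log2 -1.08 ± 0.43; adjusted p = 0.08). Neither passed the threshold. Cdh1 entered the test through its knockout libraries alone and Spp1 through its wild-type libraries alone, where each was higher.

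Around the TGF-beta that alpha v integrins release, 3 of 9 tested genes rose and none fell (33.3% called, against 26.8% of all tested genes). Thbs1, 1 of the 3, is also counted among the ligands. The most abundant ligand, Tgfb1, had 808.2 and 776.6 CPM in wild type and 747.2 and 753.1 CPM in the knockout (log2 -0.08 ± 0.03, SE; adjusted p = 0.11). Lrrc32, which encodes GARP, the protein that holds latent TGF-beta on T cells, had a log2 fold change of 0.05 ± 0.06 (adjusted p = 0.59). The genes called were Tgfb3 (log2 1.49 ± 0.11; adjusted p = 2.33e-07), a ligand at no more than 20.4 CPM, Thbs1, and Furin, the protease that cuts the TGF-beta precursor (log2 0.13 ± 0.03; adjusted p = 0.0105). Of these, Furin lost its call in 9 of 15 alternatives, among them the fits in which knockout replicate 1 (0.0781), knockout replicate 2 (0.0559) or wild-type replicate 2 (0.125) was left out, and without knockout replicate 1 the count was 1.

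Among adhesion and homing receptors that are not integrins, 10 of 21 rose and 2 fell (57.1% called, against 26.8% of all tested genes), with a median log2 fold change of 0.11. Alcam, a receptor of the immunoglobulin family, rose from 22.6 and 22.5 to 33.9 and 32.8 CPM (log2 0.56 ± 0.07; adjusted p = 3.32e-05), while its ligand Cd6 fell from 367.1 and 371.6 to 295.2 and 308.7 CPM (log2 -0.29 ± 0.04; adjusted p = 5.33e-05). Pecam1 rose by 0.56 ± 0.08 (adjusted p = 0.000112), and Ccr7, the receptor that guides cells into lymph nodes, rose by 0.85 ± 0.05 (adjusted p = 4.48e-09).

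**Figure D5:**
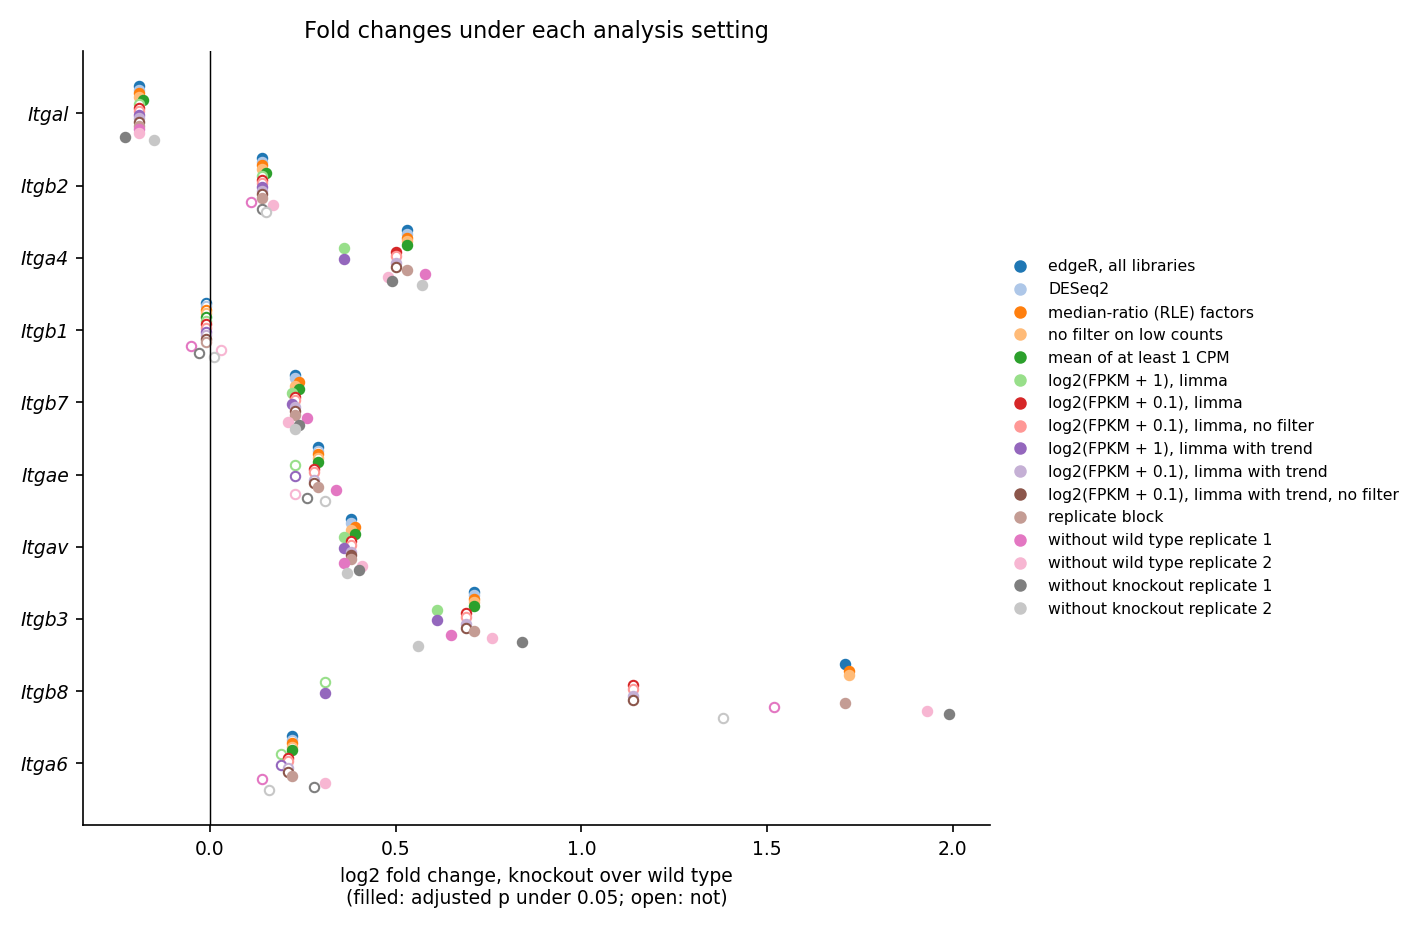
Log2 fold change, knockout over wild type, of the 10 chains (horizontal axis) in the edgeR fit of all libraries and in up to 15 alternatives, with filled points where the adjusted p was under 0.05 and open points where it was not. The points of Itgb1 lie on both sides of 0 and are all open, and the other 9 chains have filled and open points, with 2 open for Itgav and for Itga4 and 11 for Itgae and for Itga6.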

How the data were processed

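The 4 RNA libraries were run on an Illumina HiSeq, as the labels' protocols state. Bowtie, RSEM and the build GRCm38 (mm10) come from the submitters' processing notes, which give no versions. Per the file headers, each deposited table lists an expected count (RSEM's estimate), an FPKM value and a transcript length per gene, as the authors made them. The sources used here give neither the strand setting nor the annotation release. A gene missing from a table was taken as 0.

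Expected counts were rounded and tested in edgeR 4.0.16 (R 4.3.3) with the quasi-likelihood test, two-sided, with TMM factors, filterByExpr defaults (minimum count 10, total 15) and Benjamini-Hochberg adjustment at 0.05 over 12677 genes. The SE is the absolute log2 fold change divided by the square root of F. Depth gives 3 counts the value of 0.1516 to 0.1574 CPM. The common biological coefficient of variation was 2.89%. No library pair was a duplicate (chi-square per degree of freedom 2.21 and 2.55 within genotypes). Alternatives used DESeq2 1.42.0, limma 3.58.1 on log2(FPKM + 0.1) or log2(FPKM + 1), median-ratio factors, other filters, the replicate number as a block, and each library left out. The limma fits were first run without a mean-variance trend. Fits with a trend were added after seeing that most chains missed the threshold without it, and both are reported. Counts of 12677 genes were simulated for this comparison with the spread that edgeR had fitted, a setting that is edgeR's own. There edgeR found 79 of 100 genes altered 1.5-fold and 85 of 100 altered 2-fold, with 7 unchanged genes called. DESeq2 found 66 and 72 (0 unchanged). On log2(CPM + 1), limma found 48 and 68 without a trend (2 unchanged) and 79 and 85 with it (5 unchanged). The FPKM scales used on the data were not simulated. Changes under 1.5-fold were not simulated either, and all called chains but Itgb8 and Itgb3 changed by less (1.44-fold for Itga4). The simulated recovery does not cover those calls.

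The 10 chains and the lists were chosen with earlier results of these data known. Named were all 10 chains, Bfar, up to 4 called genes per list with the smallest adjusted p, the other tested integrin chains, genes that overlap a chain, and the highest marker of each other cell type. Skap1, Tln1, Fermt3, Tgfb1, Lrrc32, Cdh1, Spp1 and Icam2 were named after their values were seen. Promoters and coordinates are from RefSeq tables (GRCm38.p6), exon overlaps and 31-base words from GENCODE M21.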

Additional observations from a re-analysis of the deposited data

How the results depend on the processing

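Over 148 alternative values of the 10 chains, 99 kept their side of the threshold, 49 lost the call and none turned a called direction. The uncalled change of Itgb1, -0.01, turned sign without wild-type replicate 2 (0.03) and without knockout replicate 2 (0.01). The limma fits were first run without a mean-variance trend, and fits with a trend were chosen after seeing the data. Genes called numbered 3398, against 1578 in DESeq2, 1938 without a low-count filter and 1562 to 2350 with a library left out. In limma without a trend they numbered 1622 with log2(FPKM + 1), 454 with log2(FPKM + 0.1) and 22 with log2(FPKM + 0.1) and no filter, and with a trend 2407, 2355 and 259. Chains called numbered 9, against 4, 1 and 0 in limma without a trend, 7, 7 and 1 with a trend, and 5 to 8 with a library left out.

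With log2(FPKM + 1) and no trend, log2 changes that missed the threshold were -0.19 for Itgal (adjusted p = 0.0705), 0.14 for Itgb2 (0.119), 0.23 for Itgae (0.0558), 0.31 for Itgb8 (0.0543) and 0.19 for Itga6 (0.147). With log2(FPKM + 0.1) and no trend they were -0.19 for Itgal (0.114), 0.14 for Itgb2 (0.161), 0.23 for Itgb7 (0.0784), 0.28 for Itgae (0.0855), 0.38 for Itgav (0.0502), 0.69 for Itgb3 (0.0662), 1.14 for Itgb8 (0.0685) and 0.21 for Itga6 (0.201). With no filter the same changes missed it, as did 0.5 for Itga4 (0.117 without a trend, 0.0831 with it), and with a trend Itgav passed (0.0475). Itgae and Itga6 also missed it in both filtered fits with a trend (0.0747 to 0.0792 for Itgae, 0.149 to 0.15 for Itga6), in DESeq2 and with no count filter (0.29 and 0.22 in each). With single libraries left out, changes ranged from 0.11 to 0.17 for Itgb2, 0.23 to 0.34 for Itgae, 1.38 to 1.99 for Itgb8 and 0.14 to 0.31 for Itga6.

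Other integrin chains called were 2, but 1 in DESeq2 and with log2(FPKM + 0.1), with or without a trend, and 1 to 2 with a library left out. Activators and adaptors called were 7, but 3 in DESeq2, 4 with no count filter, 1 and 0 in limma without a trend, and 2 to 6 with a library left out. Ligands were 6, but 2 with log2(FPKM + 0.1) and no trend. TGF-beta carriers and ligands were 3, but 1 in each filtered limma fit and 1 to 3 with a library left out. Other adhesion receptors were 12, but 4 with log2(FPKM + 0.1) and no trend. Unfiltered limma fits called 0 genes in all 5 lists without a trend, and with one 1 ligand, 1 other adhesion receptor and 0 elsewhere. Where limma called 0, the genes at an unadjusted p under 0.05 numbered, unfiltered and without a trend, 4 of 14 other chains, 6 of 38 activators and adaptors, 8 of 22 ligands, 4 of 12 TGF-beta genes, 12 of 22 other receptors and 7 of the 10 chains. With a trend they numbered 2 of 14, 9 of 38 and 3 of 12 in the lists at 0, and in the filtered fit without a trend 6 of 33 activators and adaptors. The cause of these differences was not tested.

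With the replicate number as a block, 3949 genes and 9 chains were called, and no chain changed its call. The labels do not say that a number marks a shared animal or day, so the numbers are not taken as pairs. Deviations of same-numbered libraries had a correlation of 0.00695 over genes. That value includes counting noise of every gene and cannot exclude a shared batch. Depth limits Itgb8 most: DESeq2 gave it no adjusted p and its mean was under 1 CPM, so those alternatives have no value.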
